A study of Mus musculus with 13 samples.

Results

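The genes described here are 10 genes of ApoE, cholesterol efflux and liver X receptor (LXR) biology: Apoe, Abca1, Abcg1, Abca7, Nr1h2, Nr1h3, Soat1, Ch25h, Cyp46a1 and Cyp27a1. They were chosen by gene symbol, and all 10 were found among 36287 genes in the deposited table and passed the filter on low counts, which left 22065 genes. Hippocampal poly(A) RNA was sequenced from 13 mice, all of them 5xFAD, a line whose transgenes are driven by a neuronal Thy1 promoter and which forms amyloid plaques. ACLP-NT, for which the labels give only the code name, was given to 5 mice (17, 27, 49, 53 and 55), and the series title speaks of a nanomedicine aimed at the lysosomes of microglia. Aducanumab, which is an antibody against aggregated forms of amyloid beta, was given to 4 mice (24, 50, 56 and 58), and saline to 4 mice (18, 19, 32 and 38). The labels state neither age nor sex, nor dose or duration of treatment, and wild-type mice were not analysed here. The saline-treated 5xFAD mice are therefore the background for every value.

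Cholesterol does not cross the blood-brain barrier, so the brain makes its own and moves it between cells on particles built around apolipoprotein E, which astrocytes and plaque-associated microglia secrete. The transporters ABCA1 and ABCG1 load cholesterol onto these particles, and their genes, like Apoe, are classical targets of the LXR nuclear receptors, which oxysterols activate. Excess cholesterol is stored as esters or is hydroxylated to oxysterols, the form in which neurons export it from the brain. In Alzheimer's disease the pathway is studied because ApoE and its lipidation influence amyloid deposition.

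The stretches before the annotated transcription start of Apoe, Abca1, Soat1 and Cyp46a1 are shown because the first 3 of these genes moved together between libraries and Cyp46a1 moved against them. Each is the 250 bases before the start in RefSeq's annotation of GRCm38.p6, 5′ to 3′ on the gene's strand. Capitals mark a DR4-like repeat, the arrangement to which LXR binds with its partner RXR (2 copies of GGTNA with 5 bases between them, searched on both strands), an E-box (CACGTG) or a TATA box (TATAAA, both strands). Where the table lists several starts, the most upstream is given.
Apoe (chr7:19699189-19699438, minus strand): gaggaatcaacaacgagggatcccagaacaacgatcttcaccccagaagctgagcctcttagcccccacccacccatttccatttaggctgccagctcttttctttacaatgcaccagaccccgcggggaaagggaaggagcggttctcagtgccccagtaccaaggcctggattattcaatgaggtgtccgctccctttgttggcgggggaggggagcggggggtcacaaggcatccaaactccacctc
Abca1 (chr4:53159896-53160145, minus strand): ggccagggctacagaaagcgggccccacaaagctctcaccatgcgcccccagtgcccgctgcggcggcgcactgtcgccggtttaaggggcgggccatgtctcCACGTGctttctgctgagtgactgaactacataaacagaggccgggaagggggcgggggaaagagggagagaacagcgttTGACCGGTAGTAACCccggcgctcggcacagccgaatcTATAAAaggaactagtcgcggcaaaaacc
Soat1 (chr1:156474329-156474578, minus strand): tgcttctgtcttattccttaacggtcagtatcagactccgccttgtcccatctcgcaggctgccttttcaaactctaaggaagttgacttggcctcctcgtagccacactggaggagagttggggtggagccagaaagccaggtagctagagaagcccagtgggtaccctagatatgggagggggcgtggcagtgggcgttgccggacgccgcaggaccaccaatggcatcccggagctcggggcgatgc
Cyp46a1 (chr12:108334066-108334315, plus strand): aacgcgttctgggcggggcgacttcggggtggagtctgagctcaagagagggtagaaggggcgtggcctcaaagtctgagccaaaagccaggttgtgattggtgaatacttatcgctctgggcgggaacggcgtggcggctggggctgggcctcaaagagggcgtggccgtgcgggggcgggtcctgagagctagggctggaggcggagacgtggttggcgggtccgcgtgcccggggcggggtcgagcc

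Of the 10 genes, 9 matched this promoter table, Abcg1 being the exception. Abca1 was the only one of the 9 with a DR4-like repeat, which lies 67 to 53 bases before its start on the opposite strand as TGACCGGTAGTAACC and overlaps no other motif searched. That letter pattern occurs in 0.621% of 32851 windows of this length. Abca1 also holds an E-box 147 to 142 bases before the start, a motif in 6.02% of windows, and a TATA box 29 to 24 bases before it, a motif in 12.4% of windows. Cyp46a1 has none of these marked motifs and holds 4 GC boxes (GGGCGG, both strands). Its stretch has 67.6% G and C, where the median over all windows is 52.4%. At least 1 GC box lies in 32.7% of windows and in 4 of the 9 genes, which also include Abca1, Abca7 and Cyp27a1. The matches describe these letters in these windows and say nothing of binding.

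In the deposited table, whose genome build the labels and headers do not name, Apoe (ENSMUSG00000002985) spans chromosome 7 from 19430034 to 19433113 and Abca1 (ENSMUSG00000015243) chromosome 4 from 53030787 to 53159895. Soat1 (ENSMUSG00000026600) spans chromosome 1 from 156252095 to 156301901 and Cyp46a1 (ENSMUSG00000021259) chromosome 12 from 108300640 to 108328493. These positions are the table's own and are not to be mixed with those of the windows above. Abcg1 lies on chromosome 17, Abca7 on 10, Nr1h2 on 7, Nr1h3 on 2, Ch25h on 19 and Cyp27a1 on 1.

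Between genes, levels differed far more than within any of them. On the FPKM scale, which accounts for gene length, Apoe averaged 767.7 FPKM over the 13 libraries (SD 94.4), rank 25 of all genes in the table. Cyp46a1, the neuronal enzyme that turns cholesterol into the oxysterol exported from the brain, came next at 37.93 FPKM (SD 4.27). Nr1h2, which encodes LXR beta, followed at 13.3 FPKM (SD 0.836), and Nr1h3, which encodes LXR alpha, was the lowest at 1.465 FPKM (SD 0.335). Between these lay Abcg1 at 8.275, Abca1 at 5.863, Abca7 at 5.196, Soat1 at 4.149, Cyp27a1 at 2.464 and Ch25h at 1.905 FPKM. Neighbours in this order kept it in all 13 libraries except in 3 pairs: Abca1 over Abca7 in 11 of 13, Cyp27a1 over Ch25h in 11 of 13 and Ch25h over Nr1h3 in 10 of 13. Whether the genes of these 3 pairs differ in level was not tested.

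The spread within a gene also differed. Abca7 and Abcg1 were the steadiest, with coefficients of variation of 4.97% and 5.05% over the 13 libraries in CPM (counts scaled to library size, after TMM scaling), while counting error alone would give 2.07% and 1.58%. Ch25h varied by 33%, Cyp27a1 by 24.7% and Nr1h3 by 22.1%, with counting errors of 7.53%, 5.32% and 6.36% at mean counts of 176.38, 353.31 and 246.85. Apoe, with 86490 to 144818 counts per library, varied by 11.6%, where counting error is 0.303%.

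No gene of the 10 passed in any comparison. In edgeR's quasi-likelihood test, adjusted over 22065 genes at a threshold of 0.05, 0 of 10 were called for ACLP-NT against saline, as was 0% of all genes tested. At an unadjusted p below 0.05 there was 1 of the 10, Cyp46a1, where 5.88% of all genes tested reached it, 3.43% lower and 2.46% higher in ACLP-NT. For Aducanumab against saline 0 of 10 were called (0% of all genes) and 0 of 10 had an unadjusted p below 0.05 (4.68% of all genes). The counts were also 0 of 10 and 0 of 10 for ACLP-NT against Aducanumab (0% and 3.24% of all genes). DESeq2 called 0 of 10 in ACLP-NT against saline, Aducanumab against saline and ACLP-NT against Aducanumab, beside 0.0408%, 0.0725% and 0.0136% of all genes. At an unadjusted p below 0.05 it gave 1, 1 and 0 of the 10, beside 6.44%, 5.01% and 3.43% of all genes. Limma on log2(FPKM + 1) called 0 of 10 and 0% of all genes in each comparison, with 1, 0 and 0 of the 10 at an unadjusted p below 0.05, beside 6.58%, 5.23% and 3.83% of all genes. Group ranges overlapped for all 10 genes in all 3 comparisons, while 2.26%, 2.58% and 1.34% of all genes had groups that did not overlap. The 2 comparisons with saline share its 4 libraries.

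**Figure D1:**
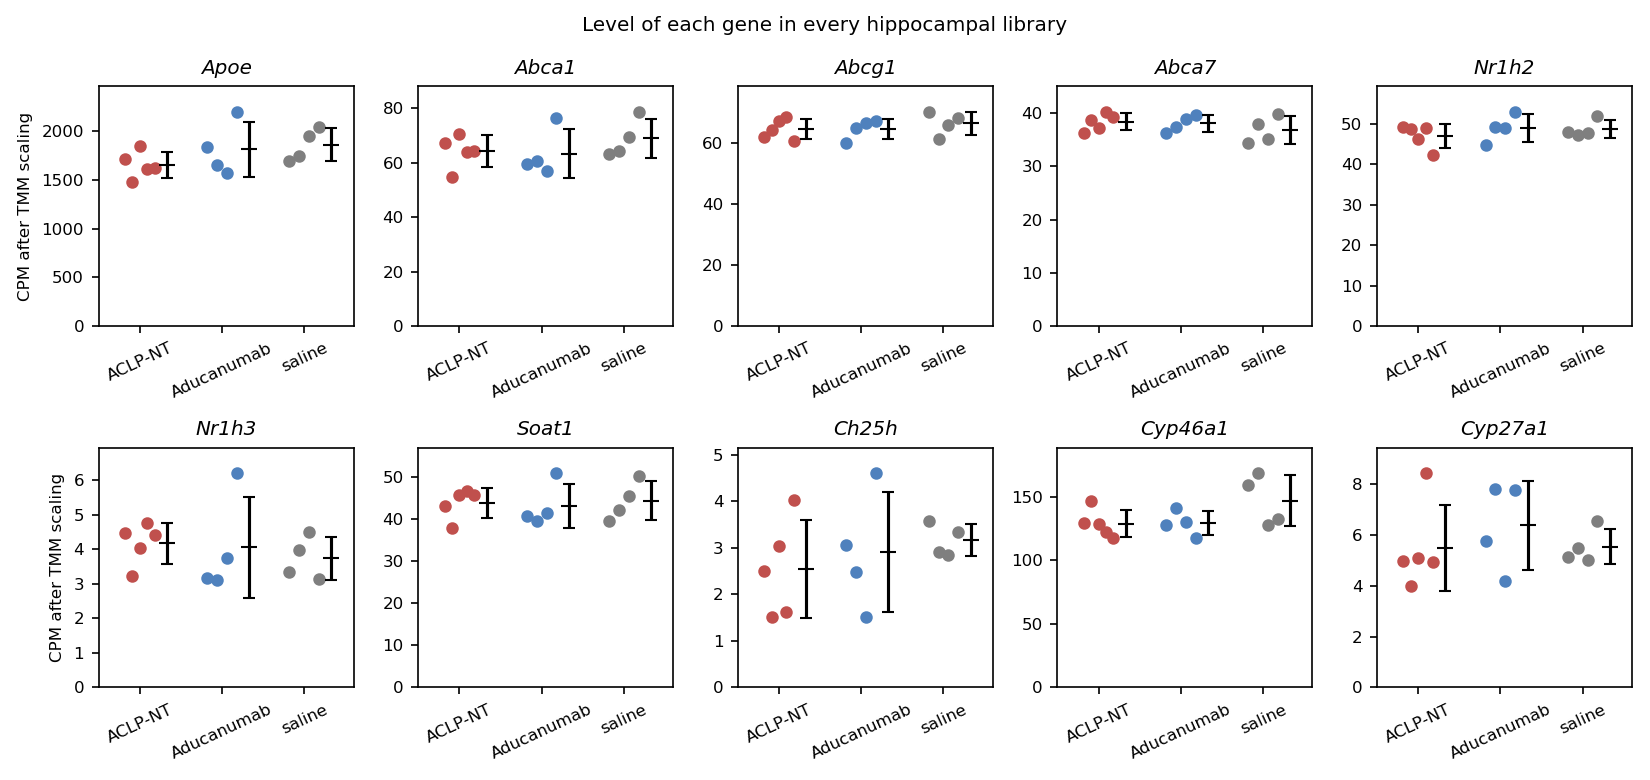
Level of each of the 10 genes in CPM after TMM scaling (vertical axes, starting at 0) in ACLP-NT (n = 5), Aducanumab (n = 4) and saline (n = 4) libraries. Points are libraries in order of their number, and bars to the right of the points give the mean and SD. The groups overlap for every gene, and Aducanumab 58 is the highest point for Apoe, Nr1h2, Nr1h3, Soat1 and Ch25h.

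Apoe itself was at 1714, 1477, 1845, 1615 and 1619 CPM in ACLP-NT 17, 27, 49, 53 and 55. Aducanumab 24, 50, 56 and 58 had 1842, 1654, 1568 and 2202 CPM, and saline 18, 19, 32 and 38 had 1691, 1747, 1954 and 2049 CPM. Aducanumab 58 was the highest and ACLP-NT 27 the lowest of the 13, and the ranges of the groups overlap. Means were 1654 ± 136 CPM in ACLP-NT (SD, n = 5), 1816 ± 281 CPM in Aducanumab (SD, n = 4) and 1860 ± 169 CPM in saline (SD, n = 4). The log2 fold change was -0.17 (95% interval -0.38 to 0.039, edgeR adjusted p = 0.878) for ACLP-NT against saline. For Aducanumab against saline it was -0.034 (-0.25 to 0.19), and its sign turned without Aducanumab 50, Aducanumab 56 or saline 38, with values up to 0.030. For ACLP-NT against Aducanumab it was -0.14 (-0.34 to 0.073), at -0.029 without Aducanumab 58 and -0.20 without Aducanumab 56.

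Beside Apoe, most microglia and reactive astrocyte markers had lower means in ACLP-NT than in saline, though 0 of them passed in edgeR. The part of these markers in the Apoe values was not tested. Summed over 8 markers, plaque-associated microglia ran from 226.9 to 382.3 CPM in ACLP-NT, 295.7 to 428.3 CPM in Aducanumab and 354 to 476.5 CPM in saline. ACLP-NT 27 and 53 were at 226.9 and 274 CPM, and ACLP-NT 17, 49 and 55 at 355.7, 382.3 and 336.5 CPM. In ACLP-NT against saline 7 of these 8 had a log2 fold change below 0, with a median of -0.45, where the median over all genes tested was -0.0015. In Aducanumab against saline, where the log2 fold change of Apoe was -0.034, it was also 7 of 8, with a median of -0.24. The 8 homeostatic microglia markers summed to 624.1 to 881.9 CPM in ACLP-NT, 726.5 to 870.1 CPM in Aducanumab and 874.8 to 1056 CPM in saline. All 8 had log2 fold changes below 0 against saline in both treatments, with medians of -0.30 in ACLP-NT and -0.29 in Aducanumab. Of all genes tested, 50.6% and 48.7% lay below 0. At an unadjusted p below 0.05 in edgeR, 7 and 6 of these 8 were lower, beside 3.43% and 2.62% of all genes. Among the plaque-associated markers 5 and 2 of 8 were. Groups did not overlap for 3 and 5 homeostatic and 3 and 0 plaque-associated markers, beside 2.26% and 2.58% of all genes. General astrocyte markers overlapped more, at 4269 to 4594, 4119 to 4700 and 4351 to 4729 CPM in ACLP-NT, Aducanumab and saline. The 7 reactive astrocyte markers summed to 1049 to 1850, 1592 to 2081 and 1545 to 2449 CPM in the same groups. Here too ACLP-NT 27 and 53 were the lowest of ACLP-NT, at 1049 and 1265 CPM, with 17, 49 and 55 at 1733, 1850 and 1681 CPM. In ACLP-NT against saline all 7 had log2 fold changes below 0 (median -0.43), 5 with an unadjusted p below 0.05 in edgeR. In Aducanumab against saline 5 of 7 lay below 0 (median -0.17), 0 with such a p. Of the 8 general astrocyte markers, 8 and 4 lay below 0 in these comparisons (medians -0.038 and -0.011), 0 with an unadjusted p below 0.05 in edgeR. Their mean centred log2 CPM ran from -0.069 to -0.0099 in ACLP-NT, -0.12 to 0.215 in Aducanumab and -0.062 to 0.074 in saline. Slc1a2 averaged 2572 CPM in ACLP-NT and makes up much of their sum. No marker of these 4 lists was at 0 in any library. In bulk tissue, fewer cells of a type and less RNA per cell cannot be told apart.

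Among the transporters, Abca1, which exports cholesterol and phospholipid to lipid-poor ApoE, was at 67.28, 54.90, 70.64, 63.92 and 64.33 CPM in the ACLP-NT libraries (17, 27, 49, 53 and 55). It was at 59.58, 60.59, 56.92 and 76.64 CPM in the Aducanumab libraries (24, 50, 56 and 58) and at 63.38, 64.24, 69.40 and 78.81 CPM in the saline libraries (18, 19, 32 and 38). ACLP-NT 27 was again the lowest, while saline 38 and Aducanumab 58 were the highest. The log2 fold changes were -0.10 (95% interval -0.31 to 0.10) for ACLP-NT against saline, -0.12 (-0.34 to 0.094) for Aducanumab against saline and 0.018 (-0.19 to 0.22) for ACLP-NT against Aducanumab. Without saline 38 the first 2 were -0.031 and -0.051, and without Aducanumab 58 the second was -0.22 (unadjusted p = 0.0248, adjusted p = 0.84 in edgeR).

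Abcg1, which passes cholesterol to particles that already carry lipid, and Abca7, a phospholipid transporter that microglia and neurons express and a risk gene for Alzheimer's disease in people, were nearly level. Abcg1 averaged 64.44 ± 3.28 CPM in ACLP-NT (SD, n = 5), 64.58 ± 3.33 CPM in Aducanumab and 66.39 ± 3.8 CPM in saline (SD, n = 4 each). The intervals of its log2 fold changes ran from -0.16 to 0.070 for ACLP-NT and from -0.16 to 0.079 for Aducanumab, each against saline. Abca7 averaged 38.39 ± 1.58 CPM in ACLP-NT (SD, n = 5), 38.08 ± 1.53 CPM in Aducanumab and 36.86 ± 2.56 CPM in saline (SD, n = 4 each). Its intervals ran from -0.058 to 0.17 and from -0.075 to 0.17. For these genes a change by a log2 value of 0.2 in either direction lies outside the intervals of both comparisons with saline.

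The receptors differed in level and in steadiness. Nr1h2 averaged 47.09 ± 2.98 CPM in ACLP-NT (SD, n = 5), 49.00 ± 3.39 CPM in Aducanumab and 48.73 ± 2.15 CPM in saline (SD, n = 4 each). Its log2 fold changes were -0.050 (95% interval -0.18 to 0.077) for ACLP-NT against saline and 0.0079 (-0.13 to 0.14) for Aducanumab against saline. Without ACLP-NT 55 the first was -0.015, and the second ran from -0.031 without Aducanumab 58 to 0.049 without Aducanumab 24. Nr1h3, the form enriched in macrophages, had 4.477, 3.227, 4.044, 4.763 and 4.420 CPM in ACLP-NT 17, 27, 49, 53 and 55. Its levels were 3.174, 3.104, 3.761 and 6.210 CPM in Aducanumab 24, 50, 56 and 58, and 3.337, 3.983, 4.515 and 3.155 CPM in saline 18, 19, 32 and 38. Aducanumab 58 stood above the other 12 libraries. The log2 fold change for Nr1h3 was 0.16 (-0.28 to 0.60) for ACLP-NT against saline and 0.12 (-0.35 to 0.58) for Aducanumab against saline, and without Aducanumab 58 the second was -0.16. The first was 0.086 without saline 38 and 0.27 without saline 32. Nr1h2 and Nr1h3 are paralogs, and the labels do not say what the counting did with reads that match both.

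Soat1, which esterifies cholesterol for storage in lipid droplets, averaged 43.85 ± 3.64 CPM in ACLP-NT (SD, n = 5), 43.19 ± 5.21 CPM in Aducanumab and 44.39 ± 4.61 CPM in saline (SD, n = 4 each). Its log2 fold change was -0.018 (95% interval -0.21 to 0.17) for ACLP-NT against saline and -0.040 (-0.24 to 0.16) for Aducanumab against saline. The first turned in sign without ACLP-NT 27 or saline 38, and the second without saline 38, with values up to 0.049. Aducanumab 58 was at 50.92 CPM, while the other 3 Aducanumab libraries lay between 39.62 and 41.50 CPM.

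The lowest unadjusted p of the 10 genes belonged to Cyp46a1. It was at 128.8, 146.3, 128.3, 122.4 and 117.8 CPM in ACLP-NT 17, 27, 49, 53 and 55, and at 127.3, 141.1, 130.1 and 117.8 CPM in Aducanumab 24, 50, 56 and 58. Saline 18 and 19 had 159.3 and 168.3 CPM, above every treated library, and saline 32 and 38 had 127.7 and 132.0 CPM, within the treated range. The log2 fold change was -0.19 (95% interval -0.37 to -0.0051, unadjusted p = 0.0448, adjusted p = 0.832 in edgeR) for ACLP-NT against saline. It was -0.19 (-0.38 to 0.0092, unadjusted p = 0.0603, adjusted p = 0.9997 in edgeR) for Aducanumab against saline, and -0.0039 (-0.19 to 0.18) between the treatments. Without saline 19 the 2 values against saline were -0.12 each, and without saline 32 they were -0.25 each.

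Neocortex markers stood beside Cyp46a1, and their part in its values was not tested. Their score, the mean centred log2 CPM of 6 genes, was 0.75 in saline 18, 0.74 in saline 19, -0.16 in saline 32 and 0.38 in saline 38. It ran from -0.45 to 0.41 in ACLP-NT and from -0.69 to 0.037 in Aducanumab, with summed levels of 95.09 to 139.1 CPM, 79.45 to 105 CPM and, in saline, 107.8 to 196 CPM. Hippocampal field markers were present in all libraries, at 445.4 to 531.3, 419.8 to 520.4 and 388 to 474.3 CPM summed over 6 genes in ACLP-NT, Aducanumab and saline. Against saline, 6 of these 6 were higher in ACLP-NT (median log2 fold change 0.21) and 5 in Aducanumab (median 0.31). All 6 neocortex markers were lower in both, with medians of -0.46 and -0.75, beside 50.6% and 48.7% of all genes tested. In edgeR 0 of either list passed. At an unadjusted p below 0.05, 1 and 5 of the 6 neocortex markers were lower, beside 3.43% and 2.62% of all genes. Of the hippocampal field markers 3 and 2 were higher, beside 2.46% and 2.07%, and 0 and 1 lower. Groups did not overlap for 0 and 2 neocortex markers, beside 2.26% and 2.58%. Of 6 thalamus and midbrain markers 4 and 6 were higher, 0 and 4 with such a p, and 0 passed. The part of the hippocampal field or thalamus and midbrain markers was not tested either.

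Ch25h, the cholesterol hydroxylase that macrophages and microglia induce in inflammation, was at 2.505, 1.524, 3.033, 1.625 and 4.035 CPM in ACLP-NT 17, 27, 49, 53 and 55. The Aducanumab libraries (24, 50, 56 and 58) had 3.052, 2.490, 1.520 and 4.603 CPM, and the saline libraries (18, 19, 32 and 38) had 3.582, 2.919, 2.841 and 3.339 CPM. Both treatments held libraries above and below all saline libraries. The coefficient of variation within groups was 41.0% in ACLP-NT, 44.2% in Aducanumab and 11.1% in saline. Log2 fold changes were -0.31 (95% interval -0.99 to 0.36) for ACLP-NT against saline and -0.12 (-0.83 to 0.59) for Aducanumab against saline. Without ACLP-NT 55 the first was -0.55, and without ACLP-NT 27 it was -0.18. Without Aducanumab 56 the second was 0.094, and without Aducanumab 58 it was -0.43. Ch25h overlaps Gm26902 on the other strand, which had a mean count of 65.54 beside 176.38 for Ch25h, and the labels do not say whether reads were counted by strand.

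Cyp27a1, the mitochondrial sterol hydroxylase, was at 4.994, 3.997, 5.101, 8.442 and 4.928 CPM in ACLP-NT 17, 27, 49, 53 and 55. Aducanumab 24, 50, 56 and 58 had 5.756, 7.804, 4.184 and 7.784 CPM, and saline 18, 19, 32 and 38 had 5.136, 5.483, 5.023 and 6.551 CPM. ACLP-NT 53 was the highest of the 13 and ACLP-NT 27 the lowest. The log2 fold change was -0.016 (95% interval -0.49 to 0.45) for ACLP-NT against saline, at -0.22 without ACLP-NT 53 and 0.079 without ACLP-NT 27. It was 0.20 (-0.29 to 0.70) for Aducanumab against saline, from 0.090 without Aducanumab 50 to 0.36 without Aducanumab 56. For ACLP-NT against Aducanumab it was -0.22 (-0.69 to 0.25), from -0.42 without ACLP-NT 53 (unadjusted p = 0.0408, adjusted p = 0.998 in edgeR) to -0.11 without Aducanumab 50.

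**Figure D2:**
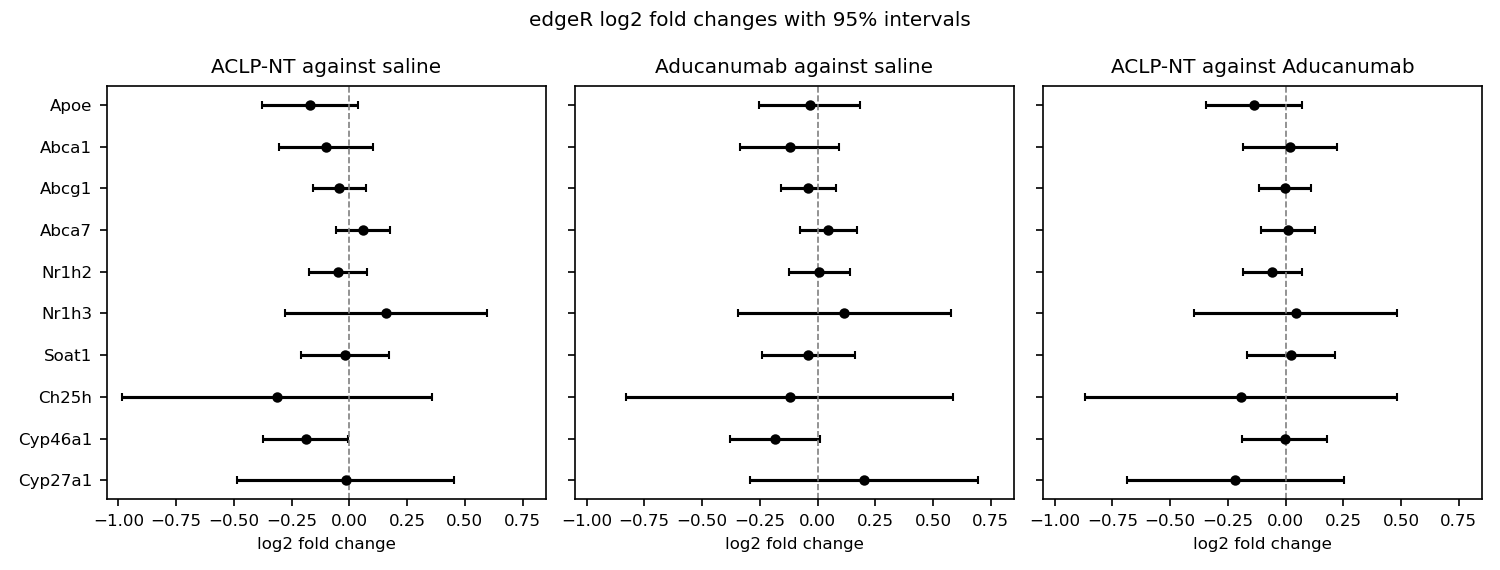
Log2 fold change (horizontal axes) of each of the 10 genes in ACLP-NT against saline, Aducanumab against saline and ACLP-NT against Aducanumab, from edgeR. Points are estimates and bars 95% intervals without adjustment for the number of genes. The interval of Cyp46a1 in ACLP-NT against saline, -0.37 to -0.0051, is the only one that leaves out 0, and Ch25h, Cyp27a1 and Nr1h3 have the widest intervals.

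As a group, 8 of the 10 genes had a log2 fold change below 0 in ACLP-NT against saline, with a median of -0.046, where 50.6% of all genes tested lay below 0. In Aducanumab against saline it was 6 of 10 with a median of -0.037 (48.7% of all genes), and in ACLP-NT against Aducanumab 6 of 10 with a median of -0.0035 (52.4% of all genes). The medians over all genes tested were -0.0015, 0.0036 and -0.0065.

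The rest of the pathway was covered by 8 further lists with 64 genes, of which 60 were tested. In edgeR 0 of these passed in any comparison. At an unadjusted p below 0.05 there was 1 gene in each comparison, each among the 8 other LXR targets, beside 5.88%, 4.68% and 3.24% of all genes tested. In the direction of that gene the shares of all genes were 3.43% for ACLP-NT below saline, 2.62% for Aducanumab below saline and 1.53% for ACLP-NT above Aducanumab (1.71% lay below). Arl4c, a small GTPase of cholesterol transport to the cell surface, averaged 36.11 CPM in ACLP-NT and 43.04 CPM in saline (log2 fold change -0.25, SE 0.11, unadjusted p = 0.0378, adjusted p = 0.806 in edgeR). Mylip, a ubiquitin ligase that marks lipoprotein receptors for degradation, averaged 18.74 CPM in Aducanumab and 22.70 CPM in saline (log2 fold change -0.28, SE 0.108, unadjusted p = 0.0226, adjusted p = 0.9997 in edgeR). In ACLP-NT it averaged 22.25 CPM, a log2 fold change of 0.25 against Aducanumab (SE 0.103, unadjusted p = 0.0305).

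Among the apolipoproteins and remodelling enzymes 7 of 10 genes were tested, with a median log2 fold change of -0.078 in ACLP-NT and 0.0039 in Aducanumab, each against saline. Clu, the other abundant brain apolipoprotein, averaged 1082 CPM in ACLP-NT and 1177 CPM in saline (log2 fold change -0.12, SE 0.101). For 8 other ABC lipid transporters the medians were -0.050 and 0.016, and Abca9 had the smallest p in ACLP-NT against saline, with 21.03 CPM in ACLP-NT and 25.08 CPM in saline (log2 fold change -0.25, SE 0.151). The 6 LXR partners and co-repressors, which include the RXR genes, had medians of 0.041 and 0.025, and the 8 lipoprotein receptors 0.012 and 0.017. Medians were -0.016 and -0.019 for 11 genes of lysosomal and intracellular sterol transport, and -0.046 and -0.016 for 6 genes of sterol sensing. The 6 tested oxysterol genes had medians of 0.016 and -0.068, and Gpr183, the oxysterol-sensing receptor of immune cells, averaged 3.705 CPM in ACLP-NT and 4.715 CPM in saline (log2 fold change -0.35, SE 0.256).

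Within the treatment groups, some of the 10 genes moved together from library to library. Deviations from the treatment-group mean of log2 CPM were compared over the 13 libraries. Abca1 followed Apoe with Pearson r = 0.93 and Spearman rho = 0.94, and r = 0.87 without the libraries farthest from the median of Apoe, Aducanumab 58 and ACLP-NT 49. Of 12312 other genes with a mean of at least 1 FPKM, Abca1 ranked 6 in likeness to Apoe. Soat1 followed Apoe with r = 0.82 (rho = 0.76, 0.73 without the same libraries, rank 130) and Abca1 with r = 0.91 (rho = 0.85, 0.81 without Aducanumab 58 and ACLP-NT 27, rank 19). Abcg1, also a transporter and an LXR target, did not share this pattern. Its r with Apoe was 0.11 (rho = 0.022) and its r with Abca1 was 0.25 (rho = 0.14), at ranks 4828 and 3775. Nor did Abca7, with r = 0.135 with Apoe (rho = 0.137) and 0.29 with Abca1 (rho = 0.25), at ranks 4580 and 3480. Values within a library share its dissection, RNA and depth, and these correlations are descriptions of the 13 libraries given with no p.

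The receptors were less alike. Nr1h3 had r = 0.57 with Apoe and 0.58 with Abca1 (rho = 0.51 and 0.53), but 0.28 without Aducanumab 58 and ACLP-NT 49 for Apoe, and 0.074 without Aducanumab 58 and ACLP-NT 27 for Abca1, so both rest on these libraries. Nr1h2 had r = 0.28 with Apoe (rho = 0.20) and 0.39 with Abca1 (rho = 0.36). Cyp46a1 ran the other way, with r = -0.67 against Apoe (rho = -0.73, and -0.73 without Aducanumab 58 and ACLP-NT 49).

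**Figure D3:**
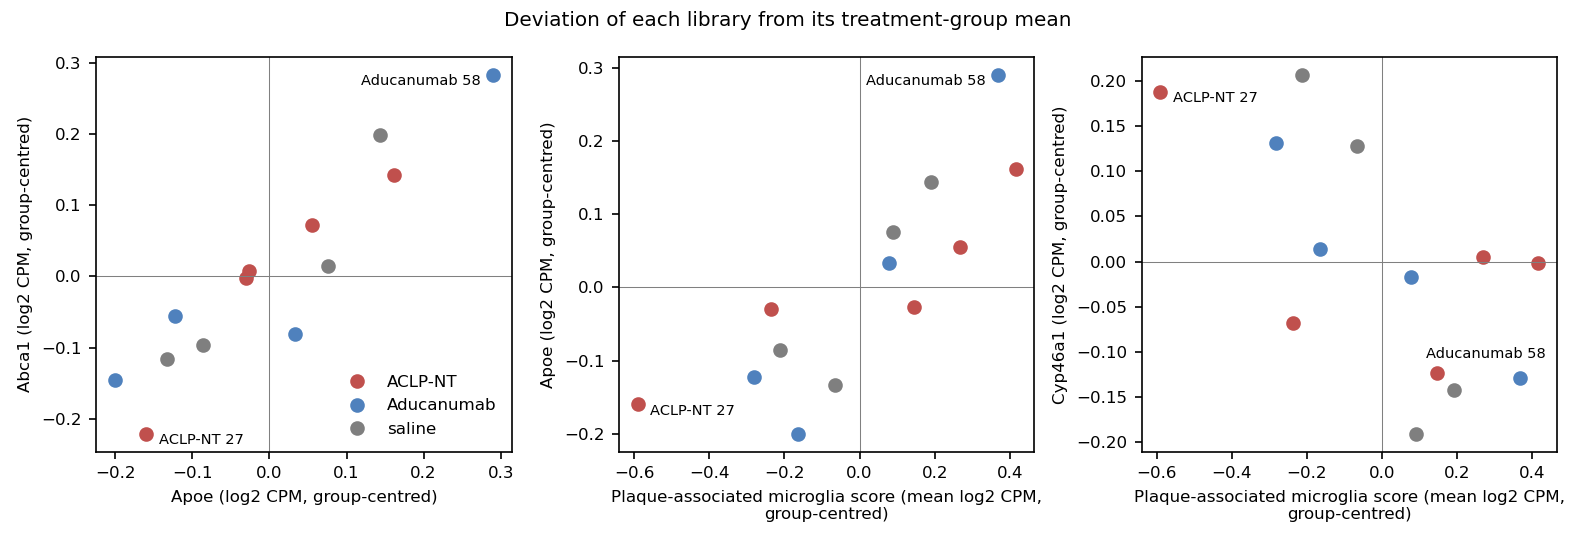
Deviation of each of the 13 libraries from the mean of its treatment group, in log2 CPM, for Abca1 against Apoe (left), Apoe against the score of 8 plaque-associated microglia markers (middle) and Cyp46a1 against that score (right). Points are libraries coloured by treatment, with ACLP-NT 27 and Aducanumab 58 named. Abca1 rises with Apoe (r = 0.93), Apoe rises with the score (r = 0.83), and Cyp46a1 falls with it (r = -0.65). For Cyp46a1 the value was -0.52 without ACLP-NT 27, and -0.45 without ACLP-NT 27 and Aducanumab 50.

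Markers of cell types moved with these genes. The score of plaque-associated microglia (Trem2, Cst7, Clec7a, Itgax, Axl, Tyrobp, Lgals3 and Cd9) had r = 0.83 with Apoe and 0.83 with Abca1 (rho = 0.85 and 0.82). Without ACLP-NT 27 and Aducanumab 50, the libraries farthest from its median, these were 0.83 and 0.79. With Ch25h it had r = 0.75 (rho = 0.73, 0.72 without them), and with Soat1 r = 0.70 (rho = 0.67, 0.51 without them). The homeostatic microglia score had r = 0.75 with Apoe (rho = 0.775, 0.795 without ACLP-NT 27 and ACLP-NT 53). For reactive astrocytes it was 0.75 (rho = 0.76, 0.72 without ACLP-NT 27 and saline 19). For border macrophages it was 0.74 (rho = 0.64, 0.33 without Aducanumab 58 and Aducanumab 56). The score of general astrocyte markers had r = 0.84 with Apoe (rho = 0.80), and 0.66 without Aducanumab 58 and Aducanumab 56. For Ch25h the astrocyte value was 0.54 (rho = 0.34) and turned to -0.16 without these libraries. Neuronal markers ran against Apoe (r = -0.77, rho = -0.74) and Soat1 (r = -0.85, rho = -0.83), at -0.48 and -0.68 without Aducanumab 58 and saline 38. For Abcg1 and Abca7 the plaque-associated microglia score gave 0.023 and -0.12. The oligodendrocyte score had r = 0.56 with Abcg1 (rho = 0.65, 0.65 without ACLP-NT 27 and ACLP-NT 17). The part of cell numbers in these relations was not tested.

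Cyp46a1, itself a neuronal gene, had r = 0.47 with the neuronal score (rho = 0.48, 0.23 without Aducanumab 58 and saline 38). With the neocortex score it had r = 0.78 (rho = 0.71, 0.68 without saline 32 and Aducanumab 50), and with the hippocampal field score r = -0.57 (rho = -0.58, -0.31 without saline 19 and saline 32). Choroid plexus scores ran from -3.23 to 2.35 in ACLP-NT, -2.83 to 2.47 in Aducanumab and -3.86 to 2.37 in saline. They had r = 0.65 with Nr1h2 (rho = 0.67, 0.59 without ACLP-NT 55 and Aducanumab 50), r = 0.54 with Abca7 (rho = 0.55, 0.83 without these libraries) and r = 0.51 with Soat1 (rho = 0.61, 0.68 without them). With Apoe r was 0.42 (rho = 0.35). The 8 choroid plexus markers had medians of 0.83 and 0.85 above saline on the log2 scale in ACLP-NT and Aducanumab. Of these 8, 0 had an unadjusted p below 0.05 in edgeR in either comparison, beside 5.88% and 4.68% of all genes. With the choroid plexus score as a covariate 0 of the 10 genes and 0% of all genes were called in each comparison.

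**Figure D4:**
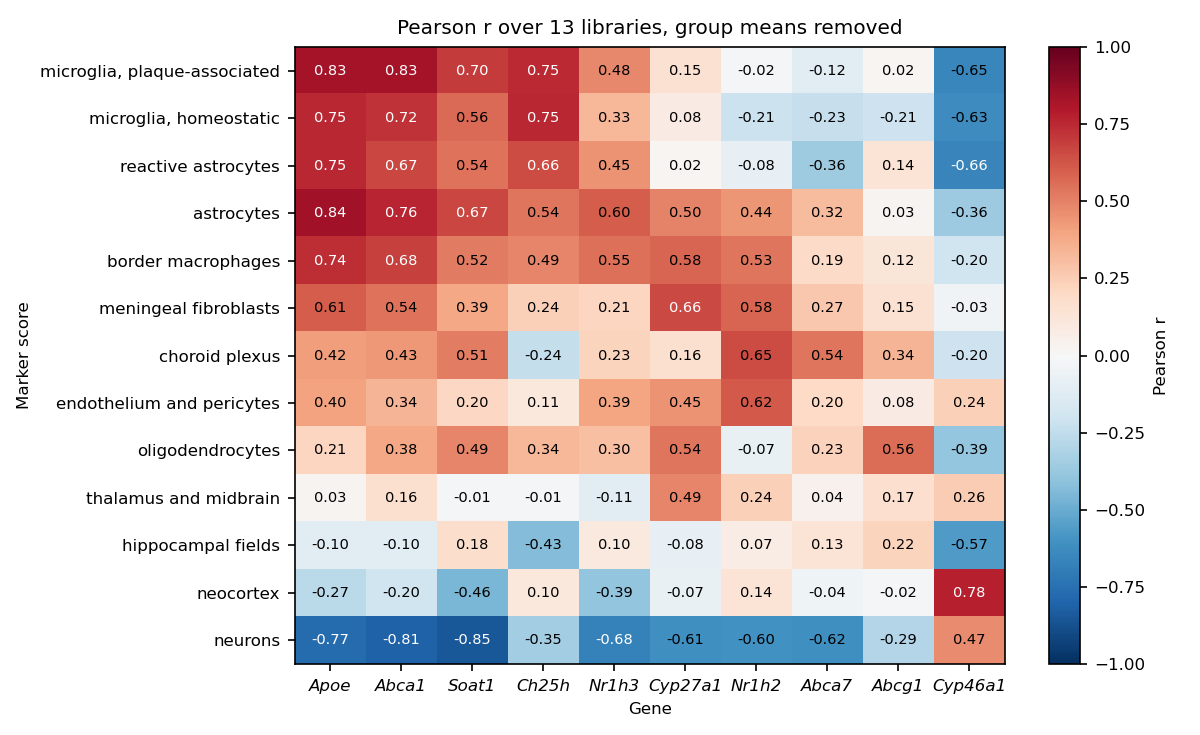
Pearson r between each of the 10 genes (columns) and 13 marker scores (rows) over 13 libraries, after removing treatment-group means, on a colour scale from -1 to 1. Apoe, Abca1, Soat1 and Ch25h have positive values with both microglia scores, as have Nr1h3 and Cyp27a1 with lower values. Cyp46a1 and, more weakly, Abca7 have negative ones, and Abcg1 stays near 0 for plaque-associated microglia (r = 0.023).

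The genes most like each of the 10 over the 13 libraries, by the same measure, give the pattern in other terms. Apoe was closest to Tgfbr2, a TGF-beta receptor (r = 0.97, rho = 0.98), and S100a1 (r = 0.97). Abca1 was also closest to Tgfbr2 (r = 0.97, rho = 0.97), followed by Tor1aip2 (r = 0.96) and Arpc1b (r = 0.95). Soat1 was closest to Parp3 (r = 0.96), Tifa (r = 0.95) and Msn, the cytoskeletal linker moesin (r = 0.94). Cyp46a1 was closest to Tm9sf4, Negr1 and R3hdm2 (r = 0.96 each), Abcg1 to Fbxl5 (r = 0.95), Ift46 (r = 0.93) and Zfp536 (r = 0.87), and Abca7 to Rlbp1 (r = 0.90), Spsb2 (r = 0.87) and Nfic (r = 0.86). For the receptors they were Ankrd9, Slc5a5 and Acadsb with Nr1h2 (r = 0.96, 0.96 and 0.92) and Gca, Apcdd1 and Adgre1, the macrophage antigen F4/80, with Nr1h3 (r = 0.88, 0.87 and 0.86). Ch25h was closest to Tyw1 (r = 0.91), Sspn (r = 0.90) and Crebl2 (r = 0.89), and Cyp27a1 to Snrk, Agpat5 and Anapc11 (r = 0.91 each). Each is among the highest of 12312 values computed over the same 13 libraries.

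Total counts per library ran from 53642019 to 64874729 in ACLP-NT, 56858092 to 64431803 in Aducanumab and 57513570 to 69734713 in saline. Ch25h had the lowest counts of the 10 genes, 87 to 272 per library. Aducanumab 58 had the highest scores of the 13 libraries for border macrophages (1.34), meningeal fibroblasts (1.3), choroid plexus (2.47) and astrocytes (0.215), and the lowest for neurons (-0.2), beside its high Apoe, Nr1h2, Nr1h3, Soat1 and Ch25h, and their part in those values was not tested. The labels number the animals without saying more about them, and the p-values weigh differences between groups against the spread between these samples.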

How the data were processed

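Per the labels' protocols, poly(A) RNA from hippocampus was captured with oligo(dT) beads and sequenced. Cutadapt 1.9 and HISAT2 2.0.4 appear in the submitters' processing notes, as do StringTie 1.3.4d and edgeR without a version. Neither labels nor headers state the counter, annotation or genome build. The promoter sequences, from RefSeq on GRCm38.p6, were matched by symbol. Raw counts per gene were deposited by the authors without normalization. FPKM values, deposited by the authors in the same table, account for gene length and library total.

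Counts were filtered with filterByExpr (22065 genes), scaled by TMM and tested with edgeR 4.0.16 (glmQLFit, glmQLFTest, two-sided, the 3 groups in 1 fit, Benjamini-Hochberg over all genes tested, threshold 0.05). The common biological coefficient of variation was 0.226. The standard error is the absolute log2 fold change over the square root of F, and intervals use the test's degrees of freedom. Correlations used log2 CPM (prior count 2). Alternatives were DESeq2 1.42.0, limma 3.58.1 on log2(FPKM + 1) and log2(FPKM + 0.1), other scalings, filters, fits and sample sets, a choroid plexus covariate, and leaving out each library. The script was tested on simulated data. The named genes are the 10 genes, in each pathway list the gene with the smallest p where none passed, of which some are left out of the text, and the 3 most like each of the 10, without predicted genes and pseudogenes; 1 of these is not reported here. Members and lists were chosen with earlier results of these data known. The alternatives for correlations were added after seeing the data.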

Additional observations from a re-analysis of the deposited data

Results flagged for a closer look

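Among 30 sets of values (10 genes in 3 groups), 2 held a library that stood apart by Dixon's criterion, where chance gives about 1 in 20. Soat1 was at 50.92 CPM in Aducanumab 58, while the next Aducanumab library was at 41.50 CPM, a gap of 0.834 of the group's range. Cyp27a1 was at 8.442 CPM in ACLP-NT 53, while the next ACLP-NT library was at 5.101 CPM, a gap of 0.752 of the range.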

How the results depend on the processing

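No member passed in any of the 3 comparisons under any of the 10 other settings or without any of the 13 libraries. Over all genes the count called was 0 in edgeR, and DESeq2 called 9 for ACLP-NT against saline, 16 for Aducanumab against saline and 3 for ACLP-NT against Aducanumab. Leaving out single libraries gave 0 to 1 genes in each comparison, 1 without saline 32 (both comparisons with saline) or without ACLP-NT 49 (both comparisons with Aducanumab). The cause was not tested.

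Signs turned for values near 0. ACLP-NT against Aducanumab became 0.00018 for Abcg1 with no filter and 0.0018 for Cyp46a1 with the choroid plexus covariate, which also gave -0.027 for Nr1h2 in Aducanumab against saline. Without single libraries, ACLP-NT against Aducanumab ran from -0.031 to 0.12 for Abca1, -0.012 to 0.032 for Abca7, -0.038 to 0.018 for Abcg1, -0.42 to 0.12 for Ch25h, -0.051 to 0.041 for Cyp46a1, -0.066 to 0.32 for Nr1h3 and -0.018 to 0.11 for Soat1. ACLP-NT against saline ran from -0.22 to 0.079 for Cyp27a1 and -0.069 to 0.049 for Soat1. Aducanumab against saline ran from -0.14 to 0.030 for Apoe, -0.43 to 0.094 for Ch25h, -0.031 to 0.049 for Nr1h2, -0.16 to 0.23 for Nr1h3 and -0.13 to 0.025 for Soat1. The correlation of Apoe and Abca1 ran from 0.88 to 0.97, and that of Soat1 with the plaque-associated microglia score from 0.56 to 0.81.

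No paired analysis was possible because the animal numbers differ between all 3 groups. Counting error was largest for Ch25h (7.53%), Nr1h3 (6.36%) and Cyp27a1 (5.32%), each below the spread between libraries.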
